A study of Danio rerio with 11 samples.

Results

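Loss of the luteinising hormone receptor gene lhcgr was examined as the change that 2 mutant lines share. All 8 mutant libraries were set against 3 control libraries, with the 4 lhb/lhcgr mutants and the 4 fshb/lhcgr mutants given equal weight, so that all 11 libraries of the series entered the comparison. Genes were described as separated when all 8 mutant libraries lay above, or all 8 below, all 3 controls. Messenger RNA came from fully grown ovarian follicles, enriched on a filter and picked by hand, of female zebrafish (Danio rerio) aged 180 days. The controls carried 1 mutant copy each of fshb, lhb, fshr and lhcgr (fshb+/-;lhb+/-;fshr+/-;lhcgr+/-) and so were not wild type. The lhb/lhcgr mutants were fshb+/-;lhb-/-;fshr+/-;lhcgr-/-, and the fshb/lhcgr mutants were fshb-/-;lhb+/-;fshr+/-;lhcgr-/-. All 3 groups thus shared a heterozygous fshr. None of the 3 groups lacked lhcgr alone: each mutant also lacked a hormone subunit that the controls kept in 1 copy, and the parts of the 2 losses in a change cannot be told apart within a mutant. The labels do not give the kind of allele, or say that each replicate was a separate fish, so p-values measure the spread between these samples only.

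Luteinising hormone (LH) and follicle-stimulating hormone (FSH) are pituitary hormones that share an alpha subunit and differ in their beta subunits, encoded by lhb and fshb. Lhcgr and Fshr are their receptors on the granulosa and theca cells of the follicle wall, and both signal through G proteins and cyclic AMP. FSH is known for follicle growth, and LH for the last steps of the fully grown follicle, in which progestins made in the follicle wall drive oocyte maturation and the wall opens to release the egg. In zebrafish, Fshr can also respond to LH.

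Libraries held between 14179252 and 25484718 counts, and 19421 of the 35889 genes in the table had enough counts to be tested. Proteins of the mitochondrial genome took between 5.28% and 12.25% of the counts. A fully grown follicle holds an oocyte within its wall, and genes of each compartment were found in every library. The oocyte genes zp3b and buc were at 586 to 1335 and 1073 to 1752 CPM (counts per 1e6 counts, scaled between libraries by the TMM method), the granulosa genes foxl2b and inha at 36.4 to 108 and 208 to 810 CPM, and the theca gene cyp17a1 at 88.7 to 146 CPM. These were not typical of the wall genes examined. Other granulosa genes were lower: fshr at 5.421 to 53.94 CPM, gsdf at 1.74 to 13.08 and foxl2a at 3.681 to 10.08. Lowest were amh at 1.071 to 3.975 and cyp19a1a at 0.06037 to 11.6 CPM. Of other theca genes, star was at 6.097 to 47.98, cyp11a2 at 6.893 to 21.33 and lhcgr at 101.8 to 336 CPM. The theca marker cyp11a1.1 was not tested. In such bulk samples, fewer cells of a type and less RNA per cell cannot be told apart.

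The receptor gene lhcgr (ENSDARG00000026081) kept its mRNA in the mutants. Its level was 153, 336 and 104 CPM in controls, 115, 123, 188 and 168 among lhb/lhcgr mutants and 149, 162, 171 and 102 among fshb/lhcgr mutants. The highest value was that of control 2, and the groups overlapped (log2 difference of mutants minus controls -0.42, standard error (SE) 0.29, adjusted p = 0.466 by edgeR's quasi-likelihood test, Benjamini-Hochberg adjusted over the 19421 genes). Since the kind of allele is not given, the mRNA level does not check the genotype. The hormone gene lhb (ENSDARG00000099363) stood at 19.7, 38.1 and 28.5 CPM in controls, 1.21, 9.78, 0.371 and 1.08 among lhb/lhcgr mutants and 3.21, 1.65, 7.49 and 3.78 among fshb/lhcgr mutants. All 8 mutants lay below all 3 controls although the fshb/lhcgr mutants and the controls are both heterozygous for lhb, and the difference did not pass the threshold (log2 difference -3.03, SE 0.71, adjusted p = 0.058). Within the lhb/lhcgr mutants, replicate 2 stood apart from the other 3. The FSH receptor gene fshr (ENSDARG00000071494) was at 5.42, 22.5 and 9.14 CPM in controls, 41.6, 44.6, 53.9 and 45.5 among lhb/lhcgr mutants and 15.2, 32, 19.8 and 13.3 among fshb/lhcgr mutants. The lhb/lhcgr mutants lay above every control and the fshb/lhcgr mutants overlapped them (log2 difference 1.31, SE 0.39, adjusted p = 0.0905). Counts of fshb were between 0 and 11 in the 11 libraries, too few to test, and cga, the gene of the shared alpha subunit, had 0 counts in all of them.

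Across the genome, 75 genes were called higher in the mutants and 248 lower at an adjusted p under 0.05, which is 0.386% and 1.28% of the genes tested. Without regard to the test, 523 genes had all 8 mutants above all 3 controls (2.69%) and 491 had all 8 below (2.53%). Calls that were also separated numbered 67 higher (0.345%) and 134 lower (0.69%), and these 201 genes are the ones described here. Separation rests on the same values as the test and lends it no support. Of the 201, 29 of the higher and 67 of the lower genes differed at least 2-fold. A model that takes the 8 mutants as 1 group, in which the difference between the mutants adds to the spread, called 3 genes higher and 9 lower, all 12 among the 201. Without control 1 the counts over all genes were 1 and 44, and without control 3 they were 130 and 238. Among the lhb/lhcgr mutants, they were 9 and 62 with replicate 4 left out, 30 and 133 with replicate 1 and 31 and 154 with replicate 3. Among the fshb/lhcgr mutants, they were 16 and 67 with replicate 1 left out, 17 and 81 with replicate 2, 44 and 170 with replicate 3 and 41 and 154 with replicate 4. For this reason the genes called with each of the 11 libraries left out in turn are given first. That choice was made after the values were seen. There were 22 such genes, 21 lower and 1 higher in the mutants, and the other 179 lost their call without at least 1 library.

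**Figure D1:**
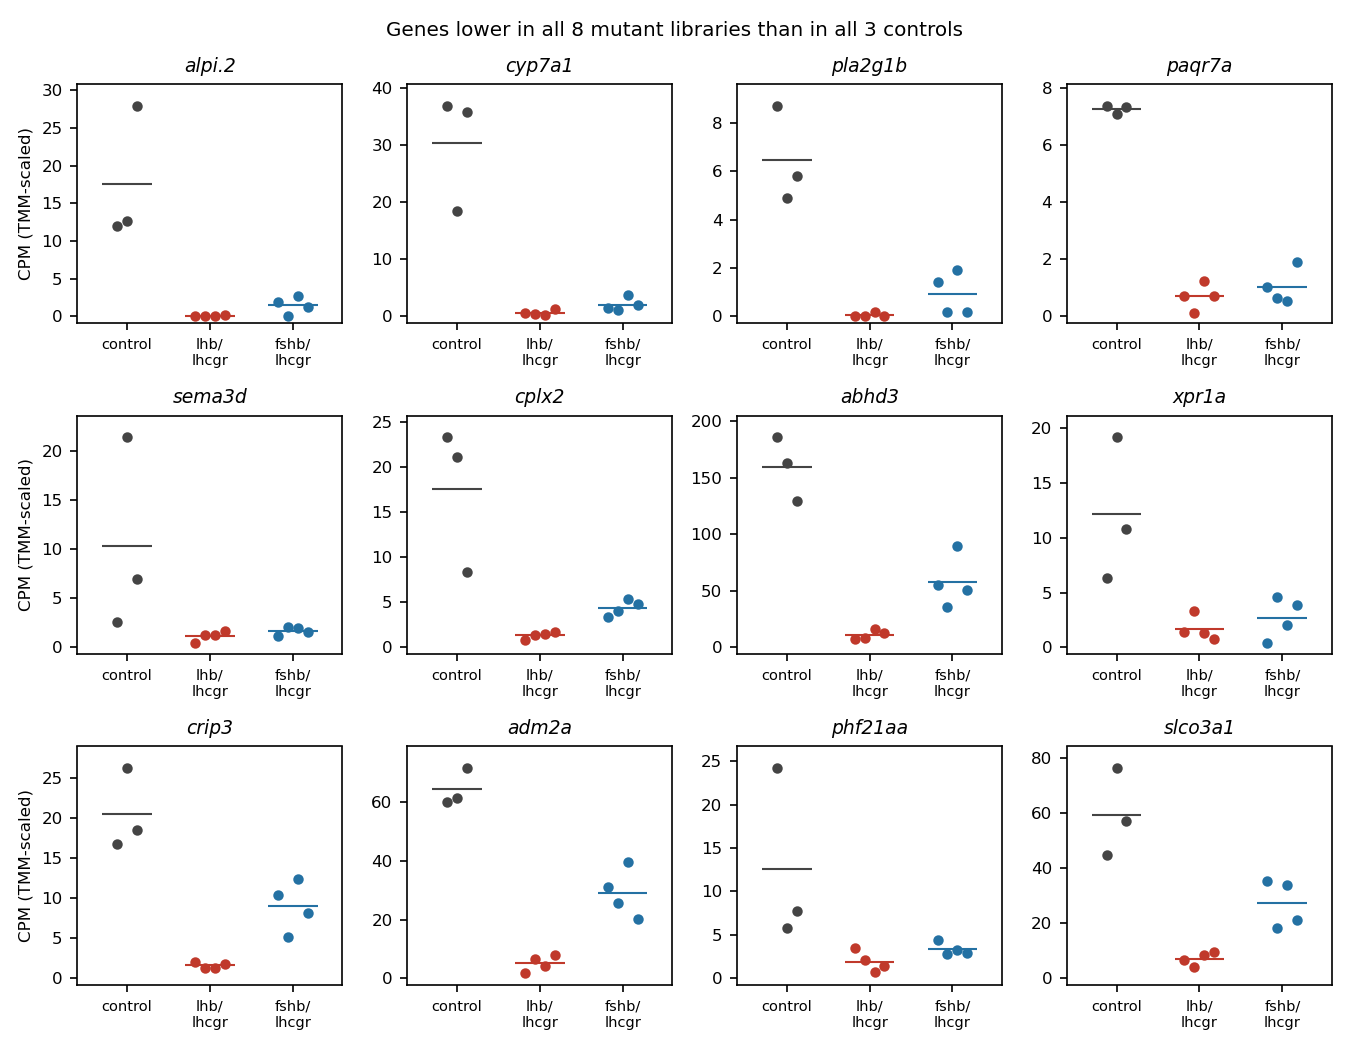
Level of the 12 genes with the largest falls among called and separated genes of at least 5 CPM whose symbol is no clone or locus placeholder, 1 panel a gene. The vertical axis is TMM-scaled CPM, points are libraries and bars are group means. All 8 mutants lie below all 3 controls in each panel. For cplx2, abhd3, crip3, adm2a and slco3a1 the 4 lhb/lhcgr mutants also lie below the 4 fshb/lhcgr mutants.

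Among the 22, cyp7a1, paqr7a and cita fell in the mutants without a called difference between the mutants. The bile acid gene cyp7a1 (ENSDARG00000069018), whose enzyme is rate-limiting in turning cholesterol into bile acids, was at 36.8, 18.4 and 35.7 CPM in controls, 0.543, 0.367, 0.223 and 1.32 among lhb/lhcgr mutants and 1.5, 1.12, 3.7 and 1.92 among fshb/lhcgr mutants. The lowest control was several times above the highest mutant (log2 difference -4.76, SE 0.42, adjusted p = 0.000108). Against the controls the log2 difference was -5.65 for lhb/lhcgr and -3.88 for fshb/lhcgr mutants, 2 values that share their controls. The mutants themselves differed by 1.76 (adjusted p = 0.0968). Levels of paqr7a (ENSDARG00000100462), which encodes a membrane progestin receptor of oocyte maturation in fish, were 7.36, 7.1 and 7.31 CPM in controls, 0.724, 0.122, 1.23 and 0.723 among lhb/lhcgr mutants and 1.02, 0.659, 0.54 and 1.92 among fshb/lhcgr mutants. Controls were close together and far above every mutant (log2 difference -3.06, SE 0.47, adjusted p = 0.00943). The citron kinase gene cita (ENSDARG00000089856), whose protein acts in cytokinesis, was at 41, 42.9 and 36.2 CPM in controls, 18.4, 20.2, 18.6 and 19.9 among lhb/lhcgr mutants and 22.2, 16.2, 15.5 and 22.5 among fshb/lhcgr mutants. Its log2 difference of -1.06 (SE 0.16, adjusted p = 0.00931) was the same size in each mutant, at -1.06 and -1.07.

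Another 8 of the 22 were also lower in the mutants without a call between them. A gene named UNC13B in the files (ENSDARG00000099113), of a family whose proteins prime vesicles for release, was at 147, 146 and 107 CPM in controls, 31.7, 31.8, 29.3 and 37.6 among lhb/lhcgr mutants and 52.8, 39.7, 58.6 and 49.6 among fshb/lhcgr mutants. Each mutant stood below the lowest control (log2 difference -1.72, SE 0.15, adjusted p = 0.000106). The gene ddhd1b (ENSDARG00000037042), of a phospholipase A1, was at 51.1, 81.3 and 58.8 CPM in controls, 8.81, 9.41, 22.1 and 19.1 among lhb/lhcgr mutants and 30, 20.3, 29.9 and 25.3 among fshb/lhcgr mutants. The fall was seen in each mutant (log2 difference -1.68, SE 0.26, adjusted p = 0.0093), with -2.09 for lhb/lhcgr and -1.27 for fshb/lhcgr mutants against the controls. The clathrin and actin linker gene hip1rb (ENSDARG00000102458) fell by less, from 66.2 ± 13.6 CPM (SD, n = 3) in the controls to 28.5 ± 4.59 and 42.4 ± 3.32 CPM (SD, n = 4 each) in lhb/lhcgr and fshb/lhcgr mutants (log2 difference -0.93, SE 0.16, adjusted p = 0.0151). The gene ca8 (ENSDARG00000039098), of a carbonic anhydrase relative without enzyme activity, was at 153, 216 and 128 CPM in controls, 30.9, 27.9, 51 and 43.3 among lhb/lhcgr mutants and 68.3, 43.6, 100.3 and 51.4 among fshb/lhcgr mutants. No mutant reached the lowest control (log2 difference -1.72, SE 0.24, adjusted p = 0.00685). The autophagy gene ambra1b (ENSDARG00000039878) was at 126, 80.6 and 93 CPM in controls, 44.7, 44.6, 43.9 and 36.5 among lhb/lhcgr mutants and 57, 59.6, 59.6 and 66.8 among fshb/lhcgr mutants. Its groups did not overlap (log2 difference -0.98, SE 0.14, adjusted p = 0.00739). It was the 1 gene of the 22 that was not called once the trend with gene length described below was removed (-0.64, adjusted p = 0.0636). The placeholder-named si:ch211-264f5.6 and zgc:162608 and a gene model without a name fell too (log2 differences -1.39, -3.48 and -1.74), and for zgc:162608 the values were -2.18 in lhb/lhcgr and -4.78 in fshb/lhcgr mutants (between the mutants adjusted p = 0.0557).

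For 10 of the 22 genes the mutants also differed from each other, and in all 10 the lhb/lhcgr mutants were the lower. Over all genes, 460 (2.37%) were called between the mutants. The phospholipid hydrolase gene abhd3 (ENSDARG00000018809) was at 186, 162 and 129 CPM in controls, 7.73, 8.13, 16.4 and 13 among lhb/lhcgr mutants and 55, 35.3, 89.9 and 51.1 among fshb/lhcgr mutants. The 3 groups did not overlap: controls were highest, fshb/lhcgr mutants between and lhb/lhcgr mutants lowest (log2 difference -2.64, SE 0.25, adjusted p = 0.000315; between the mutants 2.35, adjusted p = 0.00313). The peptide hormone gene adm2a (ENSDARG00000045708), which encodes adrenomedullin 2, showed the same order, at 60, 61.4 and 71.6 CPM in controls, 1.75, 6.72, 4.05 and 7.83 among lhb/lhcgr mutants and 30.9, 25.7, 39.6 and 20.2 among fshb/lhcgr mutants. Its difference from the controls was -2.40 (SE 0.30, adjusted p = 0.00303) and that between the mutants 2.52 (adjusted p = 0.00521). The organic anion transporter gene slco3a1 (ENSDARG00000018726) was at 44.7, 76.5 and 57.1 CPM in controls, 6.52, 4.1, 8.62 and 9.51 among lhb/lhcgr mutants and 35.3, 18.4, 33.8 and 21.3 among fshb/lhcgr mutants. Again no group overlapped another (log2 difference -2.09, SE 0.25, adjusted p = 0.00172; between the mutants 1.91, adjusted p = 0.00693).

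The same order held for crip3 (ENSDARG00000043395), which encodes a cysteine-rich LIM protein and was at 16.7, 26.3 and 18.5 CPM in controls, 2.05, 1.34, 1.34 and 1.75 among lhb/lhcgr mutants and 10.4, 5.14, 12.4 and 8.17 among fshb/lhcgr mutants (log2 difference -2.42, SE 0.27, adjusted p = 0.000759). For the complexin gene cplx2 (ENSDARG00000061918), whose protein regulates vesicle fusion, levels were 23.4, 21.1 and 8.32 CPM in controls, 0.845, 1.41, 1.49 and 1.75 among lhb/lhcgr mutants and 3.34, 4.09, 5.32 and 4.83 among fshb/lhcgr mutants. Control 3 was well under the other 2 controls and still above every mutant (log2 difference -2.83, SE 0.31, adjusted p = 0.000755; between the mutants 1.67, adjusted p = 0.0336). Levels of alpi.2 (ENSDARG00000053774), which encodes an alkaline phosphatase, were 12, 12.7 and 27.9 CPM in controls, 0, 0, 0 and 0.12 among lhb/lhcgr mutants and 1.91, 0.0659, 2.7 and 1.3 among fshb/lhcgr mutants. Over each group, 801 counts in the controls stood against 2 in the lhb/lhcgr mutants, a ratio of 682 after scaling (95% exact interval 188 to 5640, for counting error only). In the fshb/lhcgr mutants it was low, at 28, 1, 35 and 21 counts (equal-weight difference -6.28, SE 0.70, adjusted p = 0.00129). Replicate 2, with 1 count, lay within the range of the lhb/lhcgr mutants. If copies of the alpi family are alike in sequence, which was not examined, their reads could be split between them by the counting. The neural cell adhesion gene ncam2 (ENSDARG00000017466) was at 36.3, 30 and 40.2 CPM in controls, 5.74, 6.79, 3.23 and 3.67 among lhb/lhcgr mutants and 20.2, 9.89, 26.9 and 10.7 among fshb/lhcgr mutants. It too went down in steps from controls to fshb/lhcgr and then lhb/lhcgr mutants (log2 difference -1.97, SE 0.30, adjusted p = 0.0080). The others of the 10 were sh3bp4a (-1.52), si:ch73-74h11.1 (-2.99) and zgc:101810 (-4.28), the first encoding an SH3-domain protein of endocytosis.

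**Figure D2:**
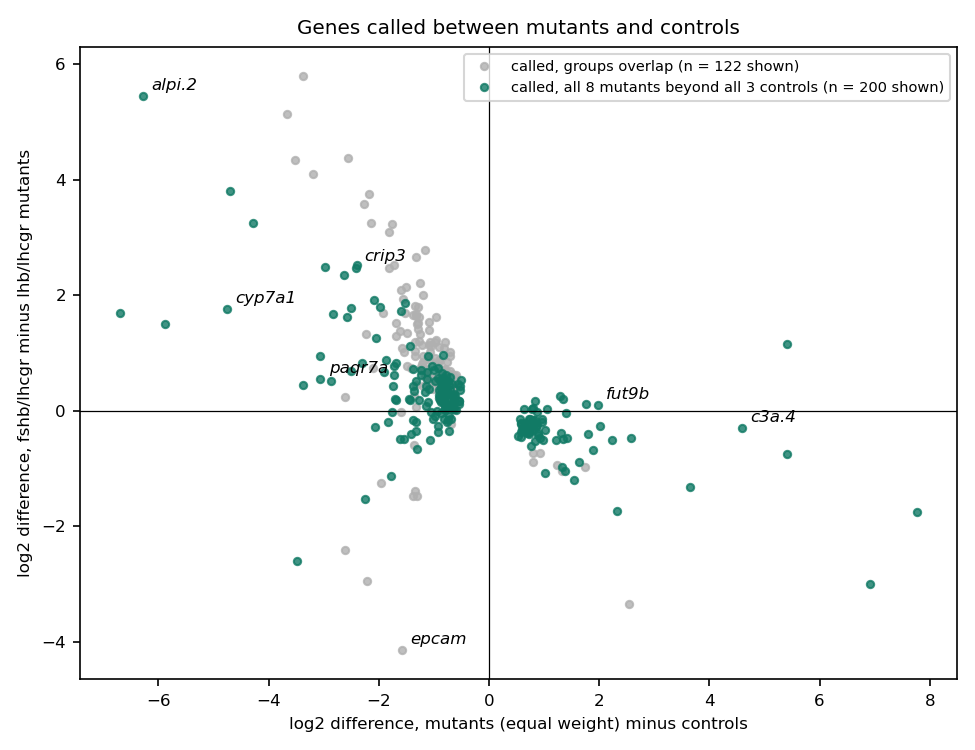
Difference of the mutants from the controls (horizontal axis, log2, mutants weighted equally) against the difference between the mutants (vertical axis, log2, fshb/lhcgr minus lhb/lhcgr) for genes called between mutants and controls. Green points are separated and grey points are not, and si:dkey-93m18.3 lies off the scale. On the lower side most points are above 0 on the vertical axis, so the lhb/lhcgr mutants are further from the controls, while cyp7a1 and paqr7a lie nearer to 0 than alpi.2, and epcam lies far below 0.

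Over the 201 genes, the lhb/lhcgr mutants were the lower in 108 of the 134 lower genes and the higher in 57 of the 67 higher genes. The same share was not counted over all genes tested. Slopes with gene length, described below, also differed among the mutant libraries, and their part in this lean was not tested. A difference between the mutants was called for 16 of the 201, 13 lower and 3 higher, and each time the lhb/lhcgr mutants were further from the controls. The 122 called genes that were not separated leaned the same way, with the larger difference in lhb/lhcgr mutants in 112 of them and a call between the mutants in 59. Over all genes tested, 2.37% were called between the mutants. Picking called genes that are not separated favours those where 1 mutant group overlaps the controls, and so favours a difference between the mutants. Against the controls, the lipase gene mgll (ENSDARG00000036820) differed by -4.05 in lhb/lhcgr and -0.30 in fshb/lhcgr mutants, and the metalloproteinase gene mmp28 (ENSDARG00000059029) by -5.69 and -1.35. The adhesion gene epcam (ENSDARG00000040534) went the other way, and was at 663, 709.6 and 899.6 CPM in controls, 1112, 921, 957 and 1253 among lhb/lhcgr mutants and 75.9, 59.8, 46.2 and 58.1 among fshb/lhcgr mutants. Its equal-weight difference of -1.59 (SE 0.16, adjusted p = 0.000315) averaged 0.49 (lhb/lhcgr) and -3.66 (fshb/lhcgr), with the lhb/lhcgr mutants above every control and the fshb/lhcgr mutants below.

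Other large falls depended on single libraries. The secreted phospholipase gene pla2g1b (ENSDARG00000009153) was at 8.7, 4.9 and 5.8 CPM in controls, 0, 0, 0.186 and 0 among lhb/lhcgr mutants and 1.43, 0.198, 1.93 and 0.186 among fshb/lhcgr mutants. No library of the mutants reached the controls (log2 difference -4.70, SE 0.73, adjusted p = 0.010), and the call was lost without control 1. Over the groups, 291 counts in the controls stood against 5 in the lhb/lhcgr mutants. For tm6sf2 (ENSDARG00000029057), whose protein acts in lipid export from liver and intestine in mammals, counts were 22, 12 and 30 in the controls, 0 in 7 mutants and 1 in fshb/lhcgr mutant 2. The ratio of pooled counts was 193 (95% exact interval 33.4 to 7740; 0.0132 as adjusted p). Its call was lost without control 1, and it was not called by DESeq2 or in a fit blocked on replicate number. The axon guidance gene sema3d (ENSDARG00000017369) was at 2.61, 21.4 and 7.0 CPM in controls, 0.483, 1.22, 1.3 and 1.69 among lhb/lhcgr mutants and 1.16, 2.04, 1.93 and 1.61 among fshb/lhcgr mutants. Its controls spread widely, and the call (log2 difference -2.87, SE 0.48, adjusted p = 0.0145) was lost without control 2. The phosphate exporter gene xpr1a was at 6.36, 19.2 and 10.8 CPM in controls, 1.39, 3.3, 1.3 and 0.783 among lhb/lhcgr mutants and 0.409, 4.61, 2.01 and 3.84 among fshb/lhcgr mutants (log2 difference -2.50, SE 0.54, adjusted p = 0.0424), and the PHD finger gene phf21aa at 24.2, 5.75 and 7.75 CPM in controls, 3.44, 2.08, 0.706 and 1.39 among lhb/lhcgr mutants and 4.37, 2.83, 3.32 and 2.97 among fshb/lhcgr mutants (log2 difference -2.31, SE 0.44, adjusted p = 0.0264). The call of xpr1a was lost when any of 9 of the libraries was left out, and that of phf21aa for any of 4.

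Lists of LH action and steroid handling held single calls, against 0.386% of all genes tested called higher and 1.28% called lower. Levels of pde4ba (ENSDARG00000032868), which encodes a cyclic AMP phosphodiesterase, were 442, 633 and 507 CPM in controls, 106, 169, 303 and 236 among lhb/lhcgr mutants and 219, 244, 279.5 and 188 among fshb/lhcgr mutants. Both mutants lay below the controls by a like amount (log2 difference -1.28, SE 0.24, adjusted p = 0.0246), and the call was lost without control 1, control 2, fshb/lhcgr mutant 1 or fshb/lhcgr mutant 2. The gene was also not called once the trend with gene length described below was removed (adjusted p = 0.0521). It was the 1 called member of 39 tested genes of the LH and FSH pathway (2.56%; median log2 difference -0.21, against -0.02 over all genes tested), a count too small to set the list apart from all genes. Of 34 genes of steroid synthesis and inactivation, 1 was called (2.94%), hsd17b12b (ENSDARG00000035872), an enzyme of fatty acid elongation that can also reduce estrone in mammals. It was at 233, 235 and 177 CPM in controls, 101, 111, 130.0 and 137 among lhb/lhcgr mutants and 119, 119, 173 and 98.5 among fshb/lhcgr mutants (log2 difference -0.80, SE 0.17, adjusted p = 0.0382), and its highest mutant, fshb/lhcgr mutant 3, came close to the lowest control. Its call was lost when any of 9 of the libraries was left out, and also with the length trend removed (adjusted p = 0.0551). The cholesterol transport gene star did not pass in the shared comparison (log2 difference -0.85, SE 0.35, adjusted p = 0.201), with -1.67 in lhb/lhcgr and -0.03 in fshb/lhcgr mutants. Nor did the androgen gene cyp17a1 (0.11, adjusted p = 0.769), the aromatase gene cyp19a1a (-0.80, 0.629) or the estrogen gene hsd17b1 (1.2, 0.0637). For hsd17b1 the log2 difference was 1.80 in lhb/lhcgr mutants, which lay above every control. It was 0.60 in fshb/lhcgr mutants, which overlapped the controls. For cyp19a1a the values were -1.81 in lhb/lhcgr and 0.21 in fshb/lhcgr mutants.

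Of 17 steroid and prostaglandin receptor genes, paqr7a was called lower (5.88%, against 1.28% of all genes tested) and 16 were not called. This count is too small to set the list apart from all genes. The nuclear progestin receptor gene pgr, which is needed for ovulation in fish, was at 206, 398 and 215 CPM in controls, 82, 99.7, 158 and 126 among lhb/lhcgr mutants and 191, 212, 269 and 169 among fshb/lhcgr mutants. The lhb/lhcgr mutants lay below all controls, and of the fshb/lhcgr mutants 2 lay below the lowest control and 2 between the controls (log2 difference -0.80, SE 0.23, adjusted p = 0.0793). Of 49 genes of follicle rupture and ovulation, mmp28 and the protease gene adamts1 were called lower (4.08%, again few), neither separated, and 47 were not called. The prostaglandin synthase genes ptgs2a (-0.73, adjusted p = 0.536) and ptgs2b (0.82, 0.0806) were among those not called. The list's median was 0.01. Of 65 growth factor genes none was called, and the gonad-specific insulin-like growth factor gene igf3 differed by -0.24 (adjusted p = 0.592). Among 45 immediate early genes 38 had negative differences, against 9984 of all 19421 genes tested. The median was -0.50, but 1 was called lower (2.22%), fosb, which was not separated. Its list's median was -0.02 in lhb/lhcgr and -0.78 in fshb/lhcgr mutants, and egr3 (-0.98, adjusted p = 0.0581) followed that split at 0.06 and -2.02.

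The list with most called and separated members was cholesterol and bile acid metabolism. Of 48 tested genes, 4 fell (8.33%, against 1.28% of all genes called lower and 0.69% called and separated lower). In the list 0 rose and 44 were not called, with a median of -0.28. Its members were chosen with earlier results of these data known, so this share does not set the list apart from all genes. Besides cyp7a1 they were soat1, srebf2 and scap. The acyltransferase gene soat1 (ENSDARG00000062297), which makes cholesterol esters, was at 102, 134 and 69.3 CPM in controls, 12.9, 46.6, 24.3 and 19.1 among lhb/lhcgr mutants and 50.8, 48.8, 69.1 and 54.5 among fshb/lhcgr mutants. Its highest mutant was just under the lowest control (log2 difference -1.43, SE 0.30, adjusted p = 0.0401). The gene srebf2 (ENSDARG00000063438), whose protein switches on sterol synthesis, was at 75.5, 74.9 and 70.7 CPM in controls, 39.8, 46.1, 31.5 and 35 among lhb/lhcgr mutants and 43.9, 24.2, 30.3 and 54 among fshb/lhcgr mutants. The fall was of equal size in both mutants (log2 difference -0.95, SE 0.20, adjusted p = 0.0401). Its partner scap (ENSDARG00000018096), the sterol sensor that escorts it, was at 23.4, 24.1 and 20.1 CPM in controls, 12.1, 9.35, 16.6 and 15.9 among lhb/lhcgr mutants and 11.3, 10.3, 8.8 and 11.4 among fshb/lhcgr mutants (log2 difference -0.92, SE 0.21, adjusted p = 0.0448). The calls of srebf2 and scap were lost with the length trend removed (adjusted p = 0.0741 and 0.0864), and those of cyp7a1 and soat1 were not (0.000128 and 0.0469). With single libraries left out, the call of cyp7a1 held each time, that of soat1 was lost for 7 of the 11 libraries, that of srebf2 for 9 and that of scap for all 11.

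**Figure D3:**
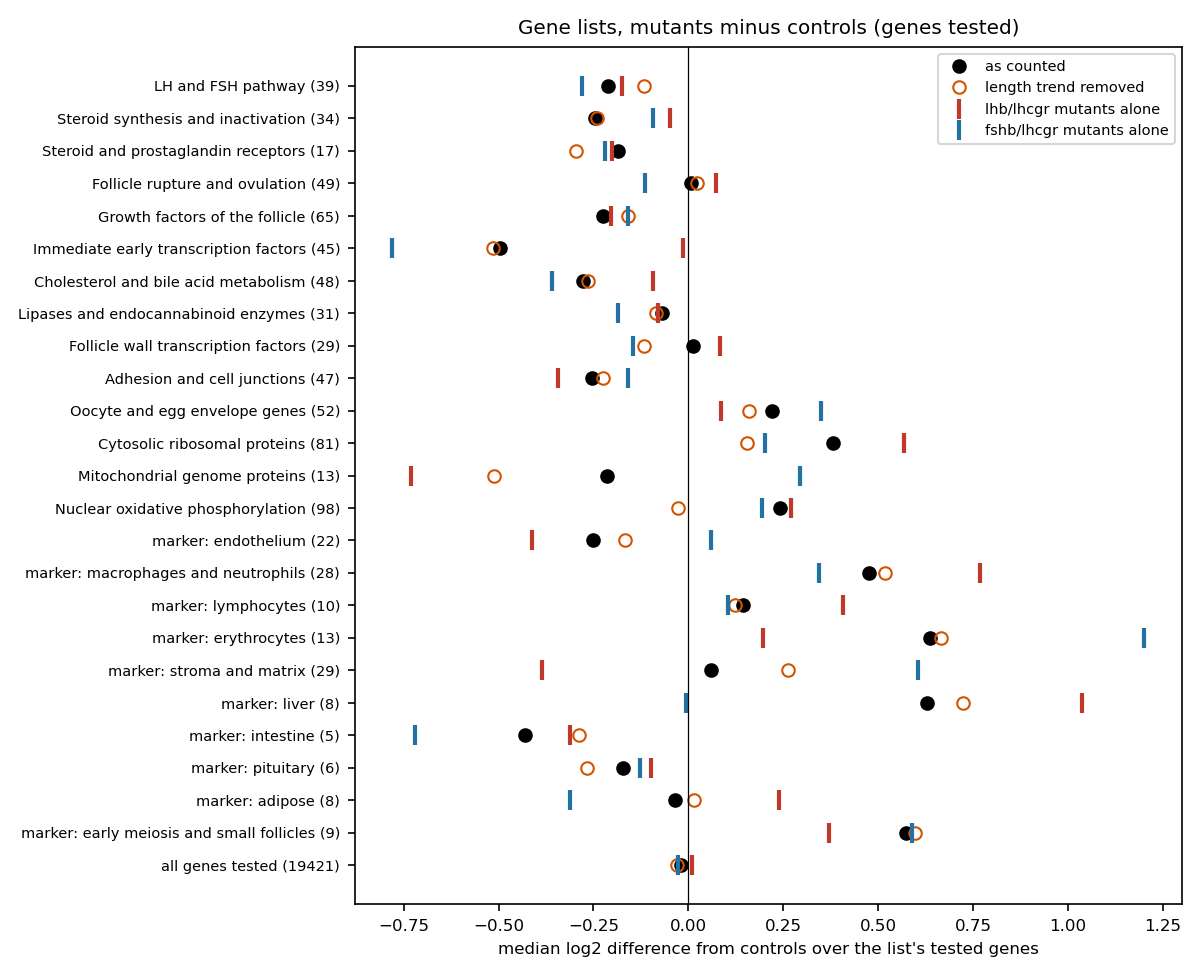
Median log2 difference from the controls over the tested genes of each list (numbers in brackets). Filled circles are both mutants with equal weight, open circles the same with the length trend removed, and red and blue ticks the lhb/lhcgr and fshb/lhcgr mutants alone. All genes together sit at -0.02. Cytosolic ribosomal proteins move from 0.38 to 0.16 when the length trend is removed, and nuclear oxidative phosphorylation from 0.24 to -0.03.

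On the higher side, 1 gene of the 22 was found, si:ch211-194m7.5 (ENSDARG00000098799), with no described role in the files. It was at 0, 0.071 and 0.063 CPM in controls, 2.9, 2.2, 3.12 and 3.25 among lhb/lhcgr mutants and 0.751, 2.7, 0.926 and 2.41 among fshb/lhcgr mutants. Controls held 2 counts in all against 325 in the mutants, a ratio of 53.9 (95% exact interval 14.8 to 447; adjusted p = 0.0077). A pair of long noncoding RNAs behaved alike in being nearly absent from the controls. Counts of si:dkey-93m18.3 (ENSDARG00000092664) were 0 in all 3 controls and 2707 over the mutants, at least 279-fold higher against a floor of 3 counts over the controls. Counts of si:dkey-93m18.4 (ENSDARG00000092967) gave 0.134, 0.071 and 0.441 CPM in controls, 11.1, 1.34, 5.87 and 7.65 among lhb/lhcgr mutants and 13, 11.5, 9.03 and 24.3 among fshb/lhcgr mutants (log2 difference 5.41, SE 0.77, adjusted p = 0.00739). For both RNAs, lhb/lhcgr mutant 2 was the lowest mutant. RefSeq (GRCz12tu) lists them as neighbours with 0 genes between, and reads that overlap both cannot be assigned without knowing how strand was used. The melanin-concentrating hormone receptor gene mchr1b (ENSDARG00000022525) also had 0 counts in the controls, 285 in the mutants, at least 29.5-fold higher, with most in the lhb/lhcgr mutants. The fold for si:dkey-90l8.3 was at least 21.8 in the same sense. The call of si:dkey-93m18.3 was lost when any of 9 of the libraries was left out, and those of si:dkey-93m18.4, mchr1b and si:dkey-90l8.3 without control 1.

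**Figure D4:**
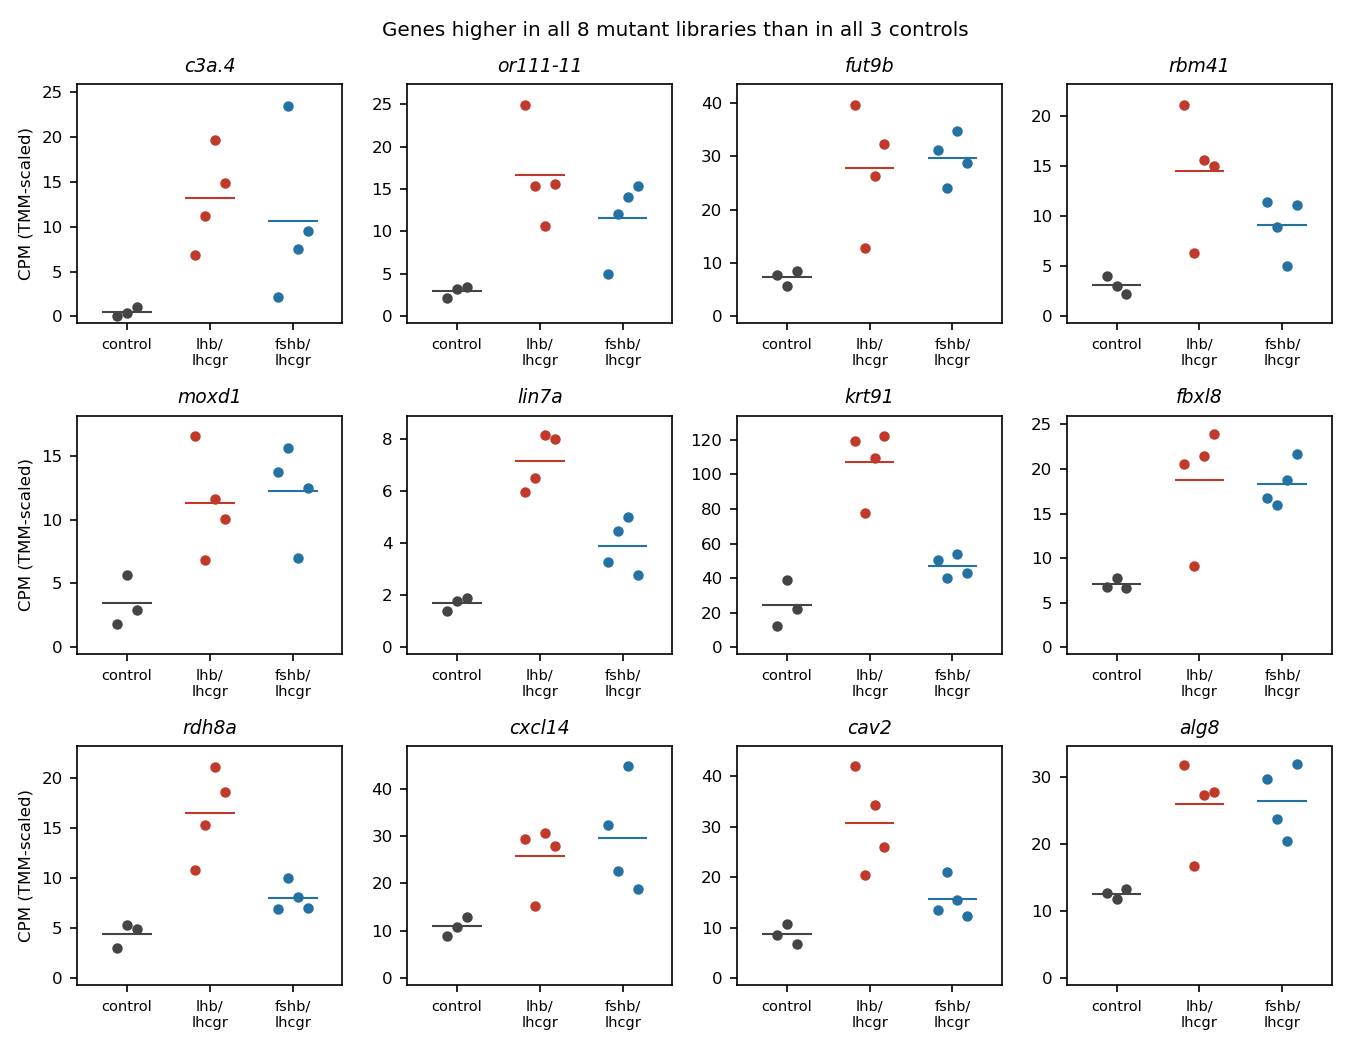
Level of the 12 genes with the largest rises among called and separated genes of at least 5 CPM whose symbol is no clone or locus placeholder, drawn as for the falls (vertical axis TMM-scaled CPM, points libraries, bars group means). All 8 mutants lie above all 3 controls in each panel. For krt91, lin7a and rdh8a the lhb/lhcgr mutants lie above the fshb/lhcgr mutants, while for fut9b, fbxl8 and alg8 the mutants overlap.

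The complement gene c3a.4 (ENSDARG00000093198) was at 0.0669, 0.355 and 1.01 CPM in controls, 6.82, 11.2, 19.7 and 14.9 among lhb/lhcgr mutants and 2.12, 23.5, 7.56 and 9.53 among fshb/lhcgr mutants. Even the lowest mutant was above the highest control (log2 difference 4.60, SE 0.86, adjusted p = 0.0287), and the call was lost without control 1, control 2 or lhb/lhcgr mutant 4. Reads may be shared with other c3a copies. The fucosyltransferase gene fut9b (ENSDARG00000067524) was at 7.76, 5.61 and 8.57 CPM in controls, 39.7, 12.8, 26.2 and 32.2 among lhb/lhcgr mutants and 31.3, 24.1, 34.7 and 28.7 among fshb/lhcgr mutants. Its difference was the same in each mutant (log2 difference 1.97, SE 0.31, adjusted p = 0.0103; 1.92 and 2.02), it was called with the mutants as 1 group, and it was lost without control 1. The olfactory receptor gene or111-11 (ENSDARG00000041019) was at 2.14, 3.26 and 3.4 CPM in controls, 24.9, 15.3, 10.7 and 15.6 among lhb/lhcgr mutants and 5.05, 12.1, 14 and 15.4 among fshb/lhcgr mutants (log2 difference 2.24, SE 0.39, adjusted p = 0.0166), also lost without control 1 alone. The keratin gene krt91 (ENSDARG00000036830) was at 12.3, 38.7 and 22.1 CPM in controls, 119.5, 77.8, 109.6 and 122 among lhb/lhcgr mutants and 50.6, 39.9, 54.2 and 43.1 among fshb/lhcgr mutants. It rose in both mutants (log2 difference 1.54, SE 0.29, adjusted p = 0.0248) and was higher in the lhb/lhcgr mutants (between the mutants -1.19, adjusted p = 0.0405). Its call against the controls did not hold with each library left out in turn. The chemokine gene cxcl14 (ENSDARG00000056627) was at 9.04, 10.9 and 12.9 CPM in controls, 29.5, 15.2, 30.6 and 27.9 among lhb/lhcgr mutants and 32.4, 22.7, 44.8 and 18.9 among fshb/lhcgr mutants. The caveolin gene cav2 (ENSDARG00000052000), of membrane pits, was at 8.57, 10.8 and 6.81 CPM in controls, 41.9, 20.4, 34.4 and 26 among lhb/lhcgr mutants and 13.4, 21.1, 15.5 and 12.4 among fshb/lhcgr mutants. Their differences were 1.34 (SE 0.30, adjusted p = 0.0436) and 1.33 (SE 0.27, 0.0342).

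The other 6 genes in the plot of rises had log2 differences from 1.06 to 1.88. The polarity scaffold gene lin7a rose by 1.64 and the retinol dehydrogenase gene rdh8a by 1.38 on the log2 scale, in each case more in lhb/lhcgr mutants (2.08 and 1.90) than in fshb/lhcgr mutants (1.2 and 0.86), without a call between the mutants. The genes moxd1 (1.76), rbm41 (1.88), fbxl8 (1.39) and the N-glycan glucosyltransferase gene alg8 (1.06) rose too, with adjusted p between 0.0329 and 0.0465. The calls of these 6 genes and of cxcl14 and cav2 were each lost when any of 6 or more of the libraries was left out.

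The most abundant named genes that were called and separated changed by less than the plotted genes of the same direction. On the higher side, the autophagosome gene map1lc3c (ENSDARG00000100528) was at 354, 429 and 541 CPM in controls, 877, 758, 744 and 923 among lhb/lhcgr mutants and 549.9, 663, 708 and 646 among fshb/lhcgr mutants (log2 difference 0.72, SE 0.16, adjusted p = 0.0433). The ribosomal protein gene rpl32 (ENSDARG00000054818) was at 196, 269.9 and 272 CPM in controls, 438, 359, 465 and 459 among lhb/lhcgr mutants and 356, 440.1, 438 and 327 among fshb/lhcgr mutants (log2 difference 0.74, SE 0.16, adjusted p = 0.0433), and the spindle checkpoint gene mad2l1 and the elongation factor gene eef1da rose by 0.58 and 0.52. On the lower side, the creatine kinase gene ckba (ENSDARG00000069752) was at 365, 411 and 411 CPM in controls, 82.2, 83.4, 206 and 167 among lhb/lhcgr mutants and 202, 151, 299 and 178 among fshb/lhcgr mutants (log2 difference -1.24, SE 0.27, adjusted p = 0.0424). The corepressor gene ctbp1 differed by -0.86, at 525, 296 and 301 CPM in controls and up to 286 CPM in fshb/lhcgr mutant 3. The gene smarca4a, of the ATPase of a chromatin remodelling complex, differed by -0.55. None of the genes just named held its call with each library left out in turn. With the length trend removed, eef1da was called (0.74, adjusted p = 0.0104) and the other 6 just named were not.

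Gene length moved with the comparison. Length was read as counts over FPKM, relative to the median gene of the table, which is set to 1. For each library, log2 CPM was taken as its deviation from the gene's mean over the 11 libraries, so slopes are relative to the average library. The slope of this deviation on doubling of length was 0.198, 0.132 and 0.0588 for controls, -0.156, -0.106, 0.000933 and -0.0849 for lhb/lhcgr mutants and from -0.0244 to -0.00266 for fshb/lhcgr mutants. The controls lay above all 8 mutants. From the shortest to the longest of 5 equal classes of genes, the median log2 difference of mutants minus controls went from 0.20 through 0.09, -0.02 and -0.11 to -0.22. The longest class held 126 of the 248 lower calls and the shortest 25 of the 75 higher ones. The median relative length was 0.776 for the 67 higher, 1.98 for the 134 lower and 1.08 for all genes tested. With a smooth length trend removed from each library, 43 genes were called higher and 118 lower, and 80 of the 201 kept their call, 26 higher and 54 lower. Of the 22 genes given first, 21 kept it. What made the slopes differ was not tested.

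**Figure D5:**
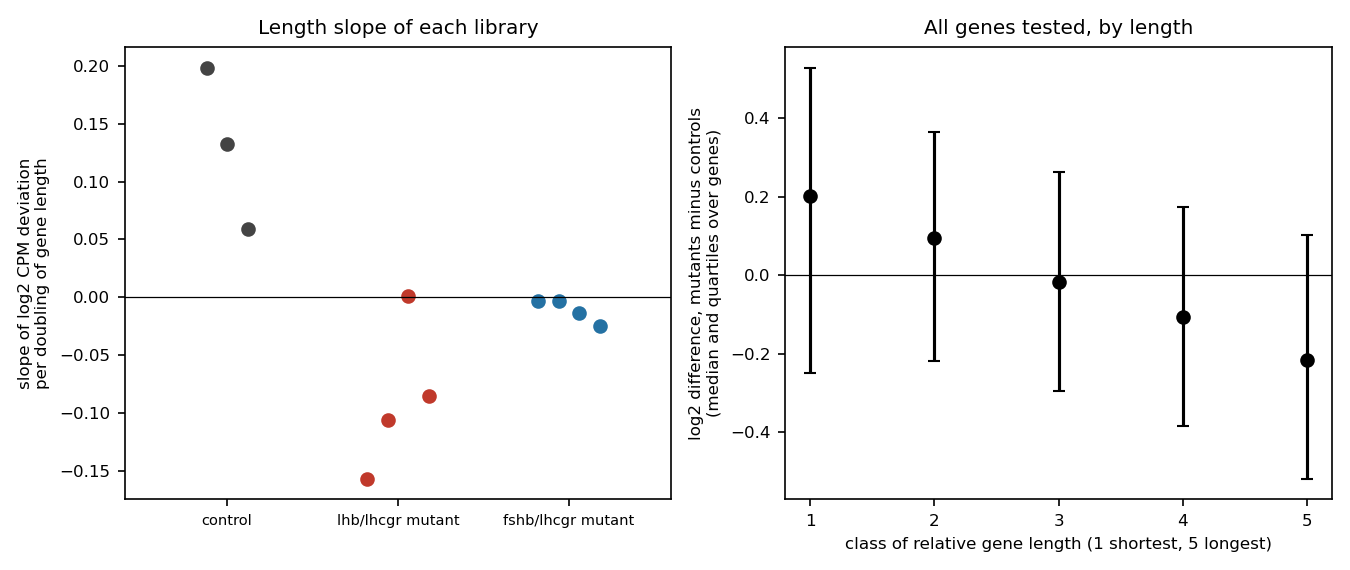
Left, slope of log2 CPM deviation on each doubling of relative gene length, 1 point a library by group. Right, median and quartiles over genes of the log2 difference of mutants minus controls in 5 equal classes of relative length. The 3 controls lie between 0.0588 and 0.198 and the 8 mutants between -0.156 and 0.000933, and the class medians fall from 0.20 to -0.22.

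Single genes of the 201, chosen after their values were seen, show the correction at work. The coactivator genes crebbpb (-0.82) and ep300b (-0.65), the methyltransferase gene kmt2d (-1.15) and the remodelling subunit gene arid1ab (-0.90) were lower in the mutants. All 4 were long, with relative lengths of 5.57, 4.9, 5.4 and 4.9, and none was called with the length trend removed (adjusted p = 0.155, 0.315, 0.107 and 0.0859). The transcription elongation genes supt6h and supt4h1 went opposite ways (-0.79 and 0.93), and supt4h1, at a relative length of 1.04, was called with the trend removed (0.0498). The RNA surveillance kinase gene smg1, of relative length 5.57, fell by the same amount in each mutant (-0.81 and -0.80) and was likewise lost (0.12). Among genes of translation, eif4ebp3 was higher (0.97) and eif4g3b lower (-0.79), and neither was called with the trend removed (0.0849 and 0.127). The tRNA modification gene yrdc was at 48.5, 66.1 and 61.7 CPM in controls, 81.8, 91.8, 97.8 and 131 among lhb/lhcgr mutants and 88.9, 111, 113 and 97.4 among fshb/lhcgr mutants (log2 difference 0.79, SE 0.17, adjusted p = 0.0401). Its mutants lay above every control, and it was called with the trend removed (0.0435). Of 81 cytosolic ribosomal protein genes 79 had positive differences, against 9437 of all 19421 genes tested. All 8 mutants lay above all 3 controls for 8 of the 81, against 2.69% of all genes. Of the list 2 were called higher (rpl32 and rpl22; 2.47%, against 0.386% of all genes), too few to set it apart. The median was 0.57 in lhb/lhcgr and 0.20 in fshb/lhcgr mutants. The equal-weight median of 0.38 fell to 0.16 with the trend removed.

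The remaining lists held 0 or 1 call, too few to tell from the 0.386% higher and 1.28% lower of all genes. The 52 oocyte and egg envelope genes (median 0.22) and the 98 nuclear genes of oxidative phosphorylation (0.24) had 0. With the length trend removed, their medians were 0.16 and -0.03. In these lists 42 and 78 genes had positive differences, against 9437 of all 19421 genes tested. All 8 mutants lay above all 3 controls for 4 of the 52 and 8 of the 98, against 2.69% of all genes tested. The oocyte list summed to 18448 to 23652 CPM in controls, 18323 to 25080 in lhb/lhcgr and 25266 to 27053 in fshb/lhcgr mutants. What moved these lists was not tested. Of the 13 mitochondrial genome proteins mt-atp8 was called lower and the median was -0.22, at -0.73 in lhb/lhcgr and 0.30 in fshb/lhcgr mutants. Among 31 lipase and endocannabinoid genes mgll was called (median -0.07), among 29 transcription factors of the follicle wall gata5 (0.01), and among 47 adhesion and junction genes epcam (-0.25), all lower and none separated.

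Markers of other cells were compared as summed CPM and as the median log2 difference over each list. No gene was called among the 22 endothelial, 28 macrophage and neutrophil, 10 lymphocyte, 13 erythrocyte, 8 liver, 6 pituitary, 8 adipose and 9 early meiosis markers. Equal-weight medians were 0.64 for erythrocyte (12 of 13 positive), 0.63 for liver (6 of 8) and 0.57 for early meiosis markers (8 of 9). Macrophage and neutrophil markers had 0.48 (24 of 28 positive), against -0.02 over all genes tested. The others were 0.15 (lymphocyte), 0.06 (stroma and matrix), -0.03 (adipose), -0.17 (pituitary), -0.25 (endothelial) and -0.43 (intestinal). Erythrocyte markers summed to 34.1 to 87.6 CPM in the controls, 68.3 to 145 in the lhb/lhcgr mutants and 104 to 189 in the fshb/lhcgr mutants. The marker hbae1 had 0 counts throughout, and 2 of the 13 were separated above, against 2.69% of all genes tested. Macrophage and neutrophil markers ranged more within groups, from 65.1 to 800.5 in controls, 89.4 to 1383 in lhb/lhcgr and 100.5 to 257 in fshb/lhcgr mutants. Stroma and matrix markers summed to 972 to 1419.8 CPM, 793 to 1097 and 1533 to 2545.5 in the same order. Of the 29, 1 was called higher, col12a1b (3.45%, against 0.386% of all genes tested), and it was not separated. Of 5 intestinal markers alpi.2 was called lower (20%, against 1.28% of all genes tested), and its counts are part of the list's sum. That sum was 16.9 to 33.4 CPM in the controls, 3.67 to 5.98 in the lhb/lhcgr and 4.09 to 7.10 in the fshb/lhcgr mutants. The marker fabp6 had 0 counts. The pituitary list includes lhb and summed to 30.9 to 49.2, 7.54 to 17.3 and 14.8 to 19.1 CPM, with cga, prl2 and smtlb at 0 counts. Liver markers summed to at most 24.7 CPM in any library, with apoa2 and fabp10a at 0 counts. Endothelial markers summed to 206 to 366, 165 to 211 and 179 to 345 CPM, lymphocyte markers to 57.5 to 78.9, 70.7 to 98.0 and 72.3 to 89.0, adipose markers to 136 to 207, 138 to 355 and 123 to 179, and early meiosis markers to 80.0 to 137, 100.4 to 143 and 95.1 to 155. Such counts of called or separated markers are too small to set a list apart from all genes. The part of these cells in the results was not tested.

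At the edge of separation, pet100 and vangl2 were just inside. For pet100 the highest control was 36.6 and the lowest mutant 36.7 CPM, and for vangl2 the lowest control was 71 and the highest mutant 70.8. Just outside were nip7, with control 2 at 17.2 and fshb/lhcgr mutant 1 at 16.9 CPM, and pcm1, with control 3 at 216 and fshb/lhcgr mutant 1 at 217.

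Calls near each mutated locus were counted from the order of genes in RefSeq (GRCz12tu), a step added after the values were seen. Of the 100 tested genes nearest to lhcgr, 3 were called and separated, all lower: fbxo11a (-0.84), lyst (-1.17) and pwwp2b (-0.69). Another 8 were separated without a call, 11% in all. Of the 100 nearest to lhb, which lies on the same chromosome, 1 was called and separated, ubr2 (-0.54), and 7% were separated. For fshb the counts were 0 and 4%. Over all 19421 genes tested, 1014 were separated in either direction, 2.69% above and 2.53% below. Called and separated genes made up 0.345% (higher) and 0.69% (lower) of all genes tested. Of the genes tested, 15733 could be placed in this order, and no test of the difference was made.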

How the data were processed

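The authors deposited raw counts per gene for 11 poly-A libraries (TruSeq kit, per the labels' protocols) and FPKM values of the same libraries, used here only for relative gene length. DESeq2 1.20.0 is named in the submitters' processing notes. Neither the aligner nor the counter, strand setting or genome build is given in the sources used here. There were 0 sample columns left unused, and the authors' 2 tables of fold changes were not used.

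Counts were tested with edgeR 4.0.16 (R 4.3.3): filterByExpr (minimum count 10, minimum total 15), TMM scaling, and a robust quasi-likelihood fit of 3 group means. The main contrast was the average of the 2 mutant means minus the control mean, 2-sided, with Benjamini-Hochberg adjustment over 19421 genes and a threshold of 0.05. The common biological coefficient of variation was 0.384. Values are TMM-scaled CPM (counts per 1e6). Intervals and the floor of 3 counts cover counting error only. The procedure was tested on simulated data.

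Members and lists were chosen with earlier results of these data known. The naming rule took, among called and separated genes with a symbol and at least 5 CPM, the 12 largest rises and falls, the 4 most abundant and the 3 with least difference between the mutants per direction, called list members (up to 3 a list), 15 fixed genes, up to 4 that differed between the mutants, and those at the edge of separation. Other genes named were chosen after their values were seen. Alternatives were other scalings and filters, DESeq2 1.42.0, limma-voom (limma 3.58.1), 1 mutant group, a replicate block, a 2-fold minimum, a length correction, a fit that is not robust, and each library left out. Libraries were matched by the replicate numbers of the sample titles, and the library names number them differently. Same-numbered libraries of different groups correlated at -0.0844 to 0.122 (deviations from group means), 3 of 10 pairs over 0.1. Libraries with different numbers correlated at -0.1867 to 0.144, 2 of 30 pairs over 0.1. The main fit did not take the numbers as pairs, and these correlations do not settle whether they are. No sequences are shown, and promoter motifs were not analysed here.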

Additional observations from a re-analysis of the deposited data

Results flagged for a closer look

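The mutants differed from each other (edgeR, adjusted p under 0.05; log2 fshb/lhcgr minus lhb/lhcgr) in 11 of the named genes. The fshb/lhcgr mutants were higher for cplx2 (1.67), abhd3 (2.35), crip3 (2.48), adm2a (2.52), slco3a1 (1.91) and alpi.2 (5.44), all of which were lower in both mutants than in controls. The alpi.2 value rests on 2 counts in the lhb/lhcgr mutants and depends on the fit's prior count. The fshb/lhcgr mutants were lower for krt91 (-1.19), which was higher in both mutants than in controls, and for epcam (-4.14), where the mutants lay on opposite sides of the controls. Of genes not called against the controls, star was higher in the fshb/lhcgr mutants (1.65), and ptgs2b (-1.23) and egr3 (-2.09) were lower.

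For each of the 56 named genes, both mutants were examined for 1 library far from the other 3. It was found for 4 genes of the 56 in the lhb/lhcgr mutants and for 0 in the fshb/lhcgr mutants, and chance alone gives about 1 in 20. They were lhb in replicate 2 (9.78 CPM), pcm1 in replicate 4 (126 CPM), alpi.2 in replicate 4 (0.120 CPM) and pla2g1b in replicate 3 (0.186 CPM). The last 2 were the only libraries of the group with counts of that gene. Such a pattern always meets the rule, so the rate of 1 in 20 does not apply to alpi.2 and pla2g1b.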

How the results depend on the processing

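Counts of calls depended on the setting. With RLE or upper quartile scaling, a fit that is not robust, no filter or a filter of 1 CPM in 3 libraries, every count of calls between mutants and controls stayed within 1.5 times its value. With library size only, 137 genes were lower and 81 of them separated. A minimum of 2-fold left 2 higher and 9 lower (2 and 8 separated) and 10 between the mutants. With the length trend removed there were 43 and 118 (37 and 73 separated), and 333 genes had all mutants above all controls. With 1 mutant group there were 3 and 9, all separated. DESeq2 called 690 and 840 (359 and 321 separated) and 1401 between the mutants, so that 45.1% of its calls were higher against 23.2% in edgeR, and limma-voom called 41 higher (38 separated). The replicate block, a fit that takes same-numbered libraries as sets, called 7 and 64 (5 and 43 separated), 9.86% of them higher.

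Leaving out 1 library gave 1 to 130 higher and 44 to 288 lower calls. Separated calls ranged from 1 to 130 and from 36 to 161. Genes with all mutants above ranged from 539 to 1320 and below from 504 to 961, since fewer libraries overlap less often, and calls between the mutants from 104 to 795. With lhb/lhcgr mutants 3 and 4 both left out, which was added after seeing the data, there were 11 and 99 (11 and 71 separated) and 27 between the mutants. Of the 22 genes called without each library, 22 were called by DESeq2 and 22 with the replicate block, 21 with the length trend removed and 7 with 1 mutant group.

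For the named genes, 924 alternative values kept direction and side of the threshold, 405 lost the call, 12 gained it and 3, never called, changed sign: lhcgr without control 2 (0.20; range with 1 library left out from -0.71), cyp17a1 without control 1 (-0.0465) and ptgs2a without control 3 (0.55; range from -1.22). The cause of these shifts was not tested. Most named genes were chosen as called and separated, which largely fixed their direction in advance. The depth of 14179252 counts or more left fshb too low to test, and 3 controls limit every comparison.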
